A study of Homo sapiens with 9 samples.

Results

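The insulin-like growth factor (IGF) axis is described here by 10 genes, namely the ligands IGF1 and IGF2, the receptor IGF1R and the binding proteins IGFBP1 to IGFBP7. Members were the probe sets of the array annotation that carry a single gene symbol and whose symbol is on this list. They came to 9 probe sets of 33297, which represent 8 genes of 18417. IGF2 and IGFBP6 share their probe sets with other symbols, so they are not analysed here.

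The cells were H9-TCF7L1, a transgenic derivative of the established human embryonic stem cell line H9, and all 9 arrays carry the transgene. TCF7L1 belongs to the TCF/LEF transcription factors and acts mainly as a repressor at Wnt targets, and its over-expression was used to look for putative target genes. The first group (PS medium with Dox) was kept 48 h in a primitive streak (PS) differentiation medium with 1 ug/ml doxycycline, which induces the transgene. The second group (PS medium) had the same medium for 48 h without doxycycline, and the third (untreated) was in mTeSR1, a medium that maintains pluripotency. Each group had 3 arrays. Whether replicates came from different cultures is not said in the labels. The p-values therefore reflect the spread among these 3 samples per group, which may be technical. The labels name no promoter for the transgene, do not say whether the line is a clone, and no group had doxycycline without the transgene or without PS medium.

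IGF1 and IGF2 are small secreted hormones related to insulin. They signal through IGF1R, a receptor tyrosine kinase whose adaptors lead to the PI3K/AKT and RAS/ERK pathways, and IGF signalling is known to sustain growth and self-renewal of human pluripotent stem cells. The binding proteins IGFBP1 to IGFBP6 hold IGFs with high affinity outside the cell, which can block or prolong their action, and proteases such as PAPPA release the bound hormone. IGFBP7 binds IGFs weakly and insulin more strongly, and has been described as a secreted protein of vessels and stroma.

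Values below are deposited intensities, in arbitrary linear units per probe set. Fold changes and log2 differences come from quantile-normalized log2(intensity + 16), fitted over all 18417 genes with limma, and understate the changes of dim genes. The error after each log2 difference is its SE, from 3 arrays per group. A gene was called at an adjusted p under 0.05 (Benjamini-Hochberg over all genes). RNA came from whole cultures, in which fewer cells of a type and less RNA per cell cannot be told apart.

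TCF7L1, the induced gene, had 13100.2, 12433 and 2699 in PS medium with Dox, against 1275, 1542 and 1611 in PS medium. All 3 arrays with Dox were above all PS arrays, but replicate 3 was far below the other two (5.24-fold higher with Dox, limma adjusted p = 0.00464, and 8.79-fold without that array). Untreated cells had 3718, 3878 and 3572, with all PS arrays below them (log2 -1.35, limma adjusted p = 0.0502, and 1.02e-06 when replicate 3 with Dox left the shared fit).

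Called changes of the binding proteins went in both directions, and IGFBP1 passed the test in no comparison. With Dox, IGFBP5 rose 10.1-fold and IGFBP7 7.32-fold over PS medium alone, IGFBP3 rose 1.82-fold, IGFBP4 fell 1.90-fold, and the receptor IGF1R rose 1.30-fold. Called changes in that comparison numbered 5 of the 8 measured members against 17.3% of all genes, with 4 members higher (8.91% of all genes) and 1 lower (8.44%). Between PS medium and untreated cells, IGFBP7 rose while IGFBP2, IGFBP3 and IGFBP5 fell, so 4 of the 8 were called against 29.8% of all genes, 1 higher (14.2%) and 3 lower (15.7%). Between PS medium with Dox and untreated cells 5 of the 8 were called against 30.3%, 3 higher (15.3%) and 2 lower (14.9%).

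Counted by arrays that did not overlap between groups on the normalized scale, 5 members were higher (15.9% of all genes) and 1 lower (15%) with Dox than in PS medium. The same count was 1 higher (20.8%) and 3 lower (22.5%) for PS medium against untreated cells, and 3 higher (22.9%) and 2 lower (22.1%) for PS medium with Dox against untreated cells. The median log2 difference of the 8 members was 0.32 with Dox over PS medium and -0.08 in PS medium over untreated cells, against 0.00 and -0.01 over all genes. The members and comparisons were chosen with earlier results of these data known, and comparisons that share the PS arrays or the untreated arrays are not separate evidence.

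**Figure D1:**
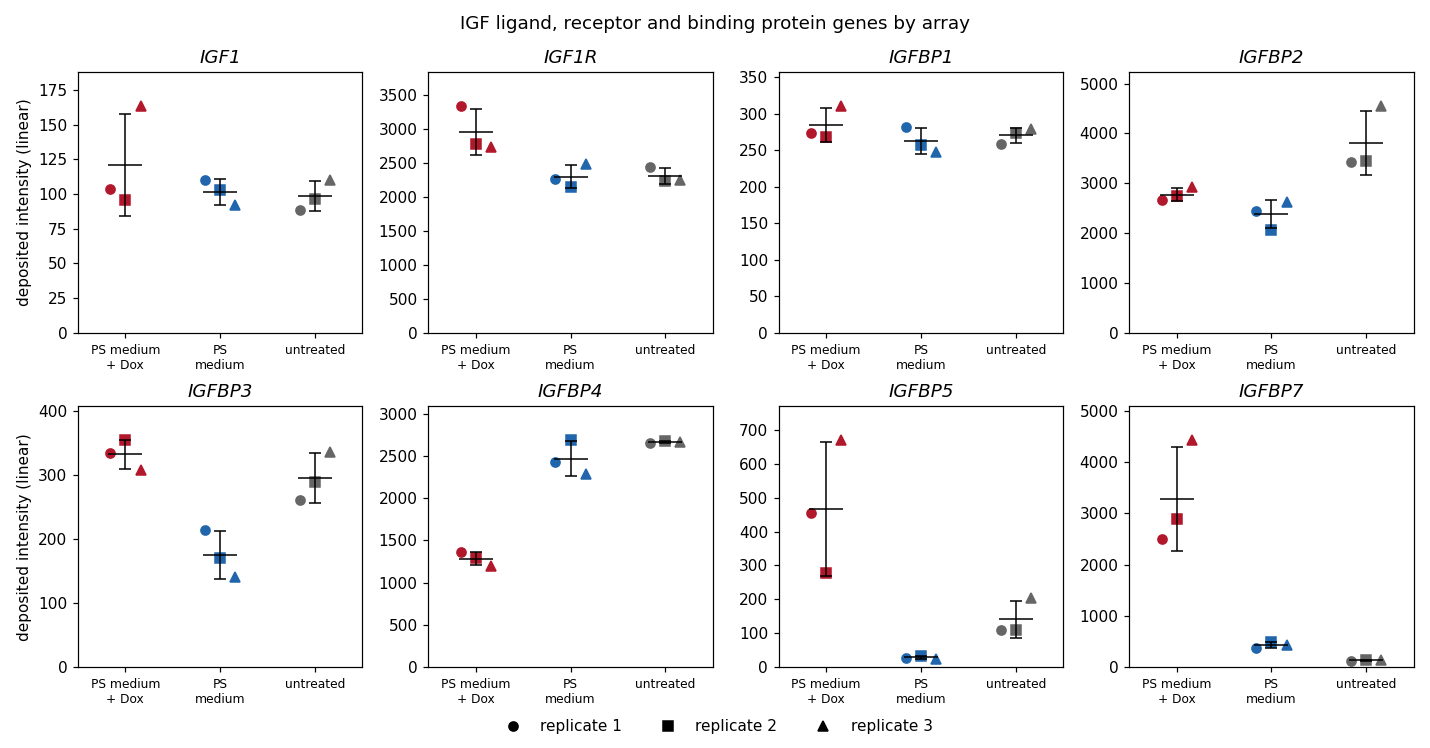
Deposited intensity (linear, vertical axes from 0, a scale of its own in each panel) of the 8 measured members on each array. Points are arrays, with the marker giving the replicate number, and black bars are the mean and SD of 3 arrays; IGFBP7 lies between 2504 and 4424 with Dox, above all other arrays, and IGFBP4 lies between 1201 and 1359 with Dox, below all other arrays.

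The windows before the annotated starts of the 3 genes IGFBP5, IGFBP3 and IGFBP4 are shown because these binding proteins changed with induction of a DNA-binding repressor and RefSeq promoter sequence was given for them (assembly GRCh38.p14). Each window is the 250 bases before the start, read 5′ to 3′ on the gene's strand. IGFBP5 is on the minus strand at chr2:216695550-216695799, IGFBP3 is on the minus strand at chr7:45921273-45921522, and IGFBP4 is on the plus strand at chr17:40443200-40443449. Capitals mark matches to the AP-2 motif GCCNNNGGC, searched on both strands, or to TATAAA, searched on the gene's strand.
IGFBP5: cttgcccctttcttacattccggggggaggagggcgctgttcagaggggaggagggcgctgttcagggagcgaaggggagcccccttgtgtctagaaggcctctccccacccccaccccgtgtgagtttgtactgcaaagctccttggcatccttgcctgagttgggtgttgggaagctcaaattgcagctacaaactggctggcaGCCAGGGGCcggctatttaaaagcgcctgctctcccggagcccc
IGFBP3: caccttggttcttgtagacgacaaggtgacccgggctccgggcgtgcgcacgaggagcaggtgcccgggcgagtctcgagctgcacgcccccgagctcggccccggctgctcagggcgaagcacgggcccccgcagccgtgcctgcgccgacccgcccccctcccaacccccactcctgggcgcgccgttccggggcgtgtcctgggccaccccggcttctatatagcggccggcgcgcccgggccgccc
IGFBP4: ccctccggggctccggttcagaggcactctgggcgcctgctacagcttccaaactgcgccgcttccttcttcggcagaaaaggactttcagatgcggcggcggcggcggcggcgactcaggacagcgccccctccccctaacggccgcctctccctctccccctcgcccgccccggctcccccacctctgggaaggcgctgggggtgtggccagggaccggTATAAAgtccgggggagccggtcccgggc

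The TCF/LEF letters CTTTGA, searched on both strands, were in none of the 10 windows listed for 7 of the 10 genes. Of all 35116 promoter windows of the same length, 11.2% held them. Other forms of the TCF/LEF site, such as CTTTGTT, were not searched, so the windows are not shown to lack TCF/LEF sites. No window was given for IGFBP7, IGFBP1 or IGF2, so these genes were not searched for any motif. The AP-2 motif was in the window of IGFBP5, starting 44 bases before the start site, and in windows of IGF1R and IGFBP6, against 19.8% of all windows. TATAAA was 29 bases before the start of IGFBP4 and in no other member's window, against 6.8% of all windows. The windows differed in base composition: IGFBP5 had 8 CpG dinucleotides and 61.2% GC, IGFBP3 had 32 and 76%, and IGFBP4 had 24 and 71.6%, where the median over all windows was 11 CpG. These matches are descriptions of the letters in these windows.

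Of the ligands, IGF1 was measured. It had 104, 95.7 and 164 in PS medium with Dox, 110.4, 103 and 92 in PS medium, and 88.6, 96.7 and 109.9 in untreated cells. The groups overlapped, and the highest value was on replicate 3 with Dox. Its log2 difference was 0.21 with Dox over PS medium (95% interval -0.12 to 0.54, limma adjusted p = 0.427), and 0.08 in PS medium over untreated cells (-0.25 to 0.41, limma adjusted p = 0.752). The first difference was 0.01 without replicate 3 with Dox.

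The receptor IGF1R had 2 probe sets. The first, which stood for the gene, had 3336, 2773 and 2735 in PS medium with Dox, 2262, 2145 and 2475 in PS medium, and 2444, 2236 and 2250.1 in untreated cells. Every array with Dox was above every array of the other groups, which overlapped. IGF1R rose 1.30-fold with Dox over PS medium (log2 0.38 ± 0.09, limma adjusted p = 0.0109) and 1.28-fold with Dox over untreated cells (0.35 ± 0.09, limma adjusted p = 0.00972). The second probe set had 1621, 1371 and 1505 in PS medium with Dox, 1057, 1046 and 1302 in PS medium, and 1139, 1027 and 1146 in untreated cells. In a fit over all 33297 probe sets the second rose 1.33-fold with Dox over PS medium (limma adjusted p = 0.0334), as the first did. Between PS medium and untreated cells the first differed by -0.03 on the log2 scale (95% interval -0.22 to 0.16, limma adjusted p = 0.874).

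IGFBP7 had the largest range of the 8 members. It had 2504, 2888 and 4424 in PS medium with Dox, 372, 482 and 429.5 in PS medium, and 122, 131 and 138 in untreated cells. No array of 1 group overlapped with those of another, and the order was PS medium with Dox, then PS medium, then untreated cells. IGFBP7 rose 7.32-fold with Dox over PS medium (log2 difference 2.87 ± 0.18, limma adjusted p = 3.11e-06), and this was the change in rank 27 from the top of all 18417 genes. It rose 3.07-fold in PS medium over untreated cells (1.62 ± 0.18, limma adjusted p = 5.23e-05). With Dox over untreated cells it was 22.4-fold higher (4.49 ± 0.18, limma adjusted p = 4.10e-08), rank 22 of all rises.

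IGFBP5, a binding protein that adheres to extracellular matrix, had 454, 277 and 670 in PS medium with Dox. It had 28.3, 33.6 and 24.5 in PS medium, and 110.1, 109 and 204 in untreated cells. The 3 groups did not overlap, with untreated cells in the middle. All PS values lay below the 25% quantile of their arrays, which was between 58.0 and 61.4. With Dox over PS medium it rose 10.1-fold (log2 3.34 ± 0.28, limma adjusted p = 2.12e-05), rank 16 of all rises. Adding 64 in place of 16 before the log gave 5.45-fold, and adding 1 gave 14.7-fold. PS medium against untreated cells showed a 3.30-fold fall (-1.72 ± 0.28, limma adjusted p = 0.000858), or 2.12-fold lower with 64 added. Against untreated cells it rose 3.08-fold with Dox (1.62 ± 0.28, limma adjusted p = 0.00129).

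IGFBP3, the main carrier of IGFs in blood, had 334, 355 and 308 in PS medium with Dox, 215, 170 and 141 in PS medium, and 261, 289 and 337 in untreated cells. The PS arrays were below all others, while the arrays with Dox and the untreated arrays overlapped. It rose 1.82-fold with Dox over PS medium (log2 0.86 ± 0.14, limma adjusted p = 0.00141) and fell 1.61-fold in PS medium against untreated cells (-0.69 ± 0.14, limma adjusted p = 0.00323). Its level with Dox differed from untreated cells by 0.17 on the log2 scale (95% interval -0.13 to 0.48, limma adjusted p = 0.397).

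IGFBP4, known as a substrate of the protease PAPPA and reported to restrain Wnt signalling in heart development, had 1359, 1290 and 1201 in PS medium with Dox. It had 2432, 2686 and 2283 in PS medium, and 2648, 2671 and 2660 in untreated cells. All arrays with Dox were below all others, and the other groups overlapped. It fell 1.90-fold with Dox against PS medium (log2 -0.92 ± 0.07, limma adjusted p = 1.21e-05) and 2.07-fold against untreated cells (-1.05 ± 0.07, limma adjusted p = 1.66e-06). PS medium and untreated cells differed by -0.13 (95% interval -0.28 to 0.03, limma adjusted p = 0.220).

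IGFBP2, a binding protein of fetal tissues, had 2656, 2751 and 2915 in PS medium with Dox, 2452, 2063 and 2623 in PS medium, and 3431, 3440 and 4551 in untreated cells. Untreated arrays were above all others, and the arrays with Dox were just above the PS arrays. It fell 1.61-fold in PS medium against untreated cells (log2 -0.69 ± 0.12, limma adjusted p = 0.00109) and 1.35-fold with Dox against untreated cells (-0.43 ± 0.12, limma adjusted p = 0.0162). The last call was lost without replicate 1 of PS medium with Dox (-0.41, adjusted p = 0.0548). Dox over PS medium gave a difference of 0.26 ± 0.12 (limma adjusted p = 0.174), which passed with the replicate number as a block (adjusted p = 0.0357).

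IGFBP1, a binding protein made by liver and decidua, had 274, 268 and 311 in PS medium with Dox, 283, 257 and 248 in PS medium, and 259, 274 and 279 in untreated cells. The groups overlapped in each comparison. The difference between PS medium with Dox and PS medium was 0.10 on the log2 scale (95% interval -0.08 to 0.29, limma adjusted p = 0.492), and that between PS medium and untreated cells was -0.02 (-0.21 to 0.17, limma adjusted p = 0.903).

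**Figure D2:**
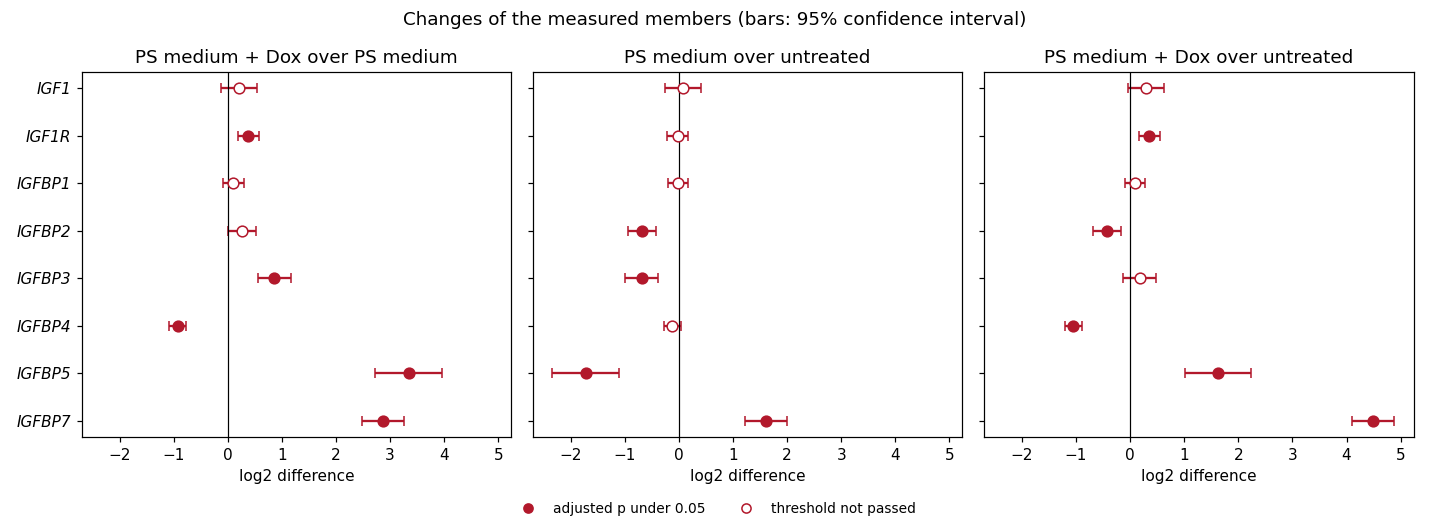
Log2 difference (horizontal axis, quantile-normalized scale) of each measured member in the 3 comparisons, with 95% confidence intervals from limma; filled points passed an adjusted p of 0.05. With Dox over PS medium, IGFBP5 (3.34) and IGFBP7 (2.87) lie far to the right and IGFBP4 (-0.92) to the left of 0, while PS medium over untreated cells shows IGFBP5 at -1.72 and IGFBP7 at 1.62.

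Replicate 3 with Dox, the array with the least TCF7L1 of its group, had the highest IGFBP7, IGFBP5, IGFBP2, IGFBP1 and IGF1 of the 3 arrays with Dox and the lowest IGFBP3, IGFBP4 and IGF1R (first probe set). The calls against PS medium were made without it too. Without it IGFBP5 was 8.31-fold and IGFBP7 6.23-fold higher, IGFBP3 1.88-fold and IGF1R 1.35-fold higher, and IGFBP4 1.85-fold lower.

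In the gene listing of assembly GRCh38.p14, IGFBP5 and IGFBP2 are the nearest coding neighbours of each other on chromosome 2, and so are IGFBP3 and IGFBP1 on chromosome 7. The members of each pair had unlike values. With Dox over PS medium IGFBP5 rose 10.1-fold while IGFBP2 differed by 0.26 on the log2 scale, and IGFBP3 rose 1.82-fold while IGFBP1 differed by 0.10. In PS medium against untreated cells IGFBP5 and IGFBP2 fell together, by 1.72 and 0.69 on the log2 scale. The difference between the members of a pair was not tested. The listing also has a gene named as antisense that overlaps IGFBP5 (IGFBP-AS1), and another that overlaps IGFBP7 (IGFBP7-AS1), while IRAIN overlaps IGF1R, and signal of overlapping genes was not separated here.

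**Figure D3:**
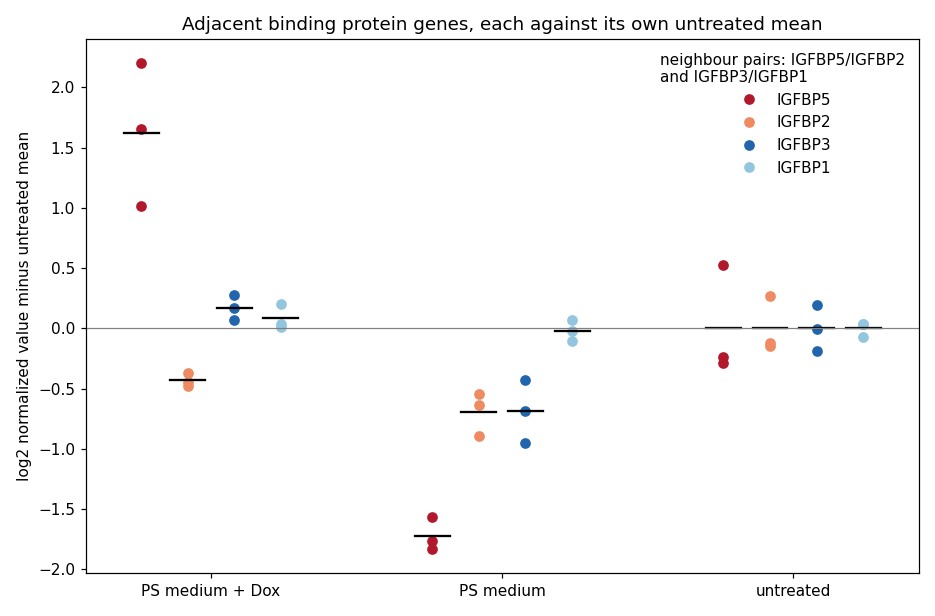
Quantile-normalized log2 value of 4 binding protein genes on each array, minus the gene's own untreated mean (vertical axis), for PS medium with Dox, PS medium and untreated cells. Points are arrays and short black lines are group means; IGFBP5 has means of 1.62 with Dox and -1.72 in PS medium, whereas its neighbour IGFBP2 has -0.43 and -0.69.

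For the 3 members whose group means spanned at least 1 on the log2 scale, the genes with the most similar pattern over the 9 arrays were taken from 1573 genes of at least that span. The 9 arrays share 3 group means, and 153 of those genes had a Pearson correlation above 0.9 with IGFBP7, 83 with IGFBP5 and 63 with IGFBP4. Nearest to IGFBP7 were CDH6, a cadherin (r = 0.996), DOK6, an adaptor (r = 0.991), and HPGD, which inactivates prostaglandins (r = 0.989). CDH6 rose 6.95-fold with Dox over PS medium and 3.14-fold in PS medium over untreated cells. Nearest to IGFBP5 were SYT7, a synaptotagmin (r = 0.985), RASGRP1, an activator of RAS (r = 0.980), and BCAM, a laminin receptor (r = 0.980). RASGRP1 rose 11.2-fold with Dox over PS medium and fell 3.36-fold in PS medium against untreated cells. Nearest to IGFBP4 were ZIC2, a zinc finger factor (r = 0.985), the neuropeptide receptor gene ADCYAP1R1 (r = 0.978) and SHF, an adaptor (r = 0.977). ZIC2 fell 2.60-fold with Dox against PS medium.

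Other genes of the axis were counted by list, with the median log2 difference of each list for Dox over PS medium and then for PS medium over untreated cells. Of all genes, 8.91% were called higher and 8.44% lower in the first comparison, and 14.2% and 15.7% in the second. Of the other receptors and ligands, 4 of 6 were measured (INSR, INSRR, IGF2R and IGFALS), with medians of -0.06 and -0.01. By limma 0 were called with Dox over PS medium, and 0 had an unadjusted p under 0.05. INSR, the insulin receptor, fell 1.39-fold in PS medium against untreated cells (limma adjusted p = 0.00119), with mean intensities of 431 ± 11.4 in PS medium and 596 ± 15.6 in untreated cells (SD, n = 3 each).

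IGFBP proteases and their inhibitors changed in both directions. With Dox over PS medium, 1 of 11 rose and 4 fell, and in PS medium over untreated cells 3 rose and 4 fell (medians -0.28 and -0.15). As shares these were 9.09% higher and 36.4% lower with Dox, where 8.91% and 8.44% of all genes were called, and 27.3% and 36.4% in PS medium, where 14.2% and 15.7% were. MMP2, a gelatinase that can cleave binding proteins, averaged 1698 ± 100.8 in PS medium with Dox and 3476 ± 304 in PS medium (SD, n = 3 each), 2.01-fold lower. PS medium over untreated cells gave a 2.63-fold rise of MMP2. PRSS23, a secreted serine protease, rose 2.16-fold with Dox over PS medium, while its 1.48-fold fall in PS medium against untreated cells was lost without PS replicate 1 or 3 or any untreated array (adjusted p = 0.0508 to 0.0622). STC1, a stanniocalcin that inhibits PAPPA, averaged 602 ± 247 with Dox and 1330 ± 374 in PS medium (SD, n = 3 each), 2.24-fold lower (limma adjusted p = 0.0231). That call was lost without replicate 1 or 2 with Dox (adjusted p = 0.0502 and 0.0594) or replicate 1 or 3 of PS medium (0.0546 and 0.0719). ADAMTS1, a metalloprotease, rose 2.29-fold in PS medium over untreated cells.

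IGFBP-related secreted proteins rose with Dox over PS medium in 4 of 9 cases and fell in 0 by limma, also at an unadjusted p under 0.05, and 1 rose and 2 fell in PS medium over untreated cells (medians 0.10 and -0.05). The share higher with Dox was 44.4%, against 8.91% of all genes, and the shares in PS medium were 11.1% higher and 22.2% lower, against 14.2% and 15.7%. CCN2, a matricellular protein, averaged 2219 ± 474 with Dox and 1017 ± 271 in PS medium (SD, n = 3 each), 2.22-fold higher. Its relative CCN1 rose 2.11-fold, CRIM1, a membrane protein with an IGFBP-like domain, 1.79-fold, and IGFBPL1, an IGFBP-like secreted protein, 1.64-fold. In PS medium against untreated cells CCN2 fell 1.83-fold and CRIM1 1.28-fold. IGFBPL1 was 1.20-fold higher there (limma adjusted p = 0.0483), a call lost without any 1 array with Dox or in PS medium, or untreated replicate 1 or 2 (adjusted p = 0.0546 to 0.188), and also with all probe sets (0.0795), the groups compared alone (0.0760) or no trend (0.0621).

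Receptor adaptors rose in 5 of 19 cases and fell in 4 with Dox over PS medium, and rose in 4 and fell in 2 in PS medium over untreated cells (medians -0.05 and 0.10). The shares were 26.3% higher and 21.1% lower with Dox, against 8.91% and 8.44% of all genes, and 21.1% and 10.5% in PS medium, against 14.2% and 15.7%. DOK5, an adaptor of the insulin receptor, averaged 2504 ± 790 with Dox and 972 ± 206 in PS medium (SD, n = 3 each), 2.54-fold higher. SOCS2, a suppressor of cytokine and growth hormone signals, rose 1.68-fold with Dox over PS medium and 2.05-fold in PS medium over untreated cells. SOS2, an activator of RAS, rose 1.86-fold in PS medium over untreated cells. SHC3 fell 1.87-fold in PS medium against untreated cells, a call lost without replicate 1 of PS medium (adjusted p = 0.0511) or replicate 2 of untreated cells (0.0569).

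Of 25 measured PI3K/AKT/mTOR and FOXO genes, 2 rose and 2 fell with Dox over PS medium, and 6 rose and 8 fell in PS medium over untreated cells (medians 0.07 and -0.03). With Dox the share was 8% each way, near the 8.91% higher and 8.44% lower of all genes, and in PS medium 24% were higher and 32% lower, against 14.2% and 15.7%. PIK3R1, the regulatory subunit of PI3K, averaged 1028 ± 84 with Dox and 1930 ± 453 in PS medium (SD, n = 3 each), 1.82-fold lower, and was 2.33-fold higher in PS medium than in untreated cells. FOXO4, a forkhead factor that AKT inhibits, rose 2.30-fold with Dox over PS medium. Its 1.39-fold fall in PS medium against untreated cells was lost without PS replicate 1 (adjusted p = 0.132) or untreated replicate 1, 2 or 3 (0.0573, 0.147 and 0.0809), and also with values as deposited (0.0548), median centring (0.109) or all probe sets tested (0.0715). PIK3CD, a catalytic subunit, fell 1.999-fold and INPP5D, a lipid phosphatase, 1.89-fold in PS medium against untreated cells.

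Genes known to be induced by FOXO factors rose in 4 of 12 cases and fell in 2 with Dox over PS medium (33.3% and 16.7%, against 8.91% and 8.44% of all genes). SESN3, a sestrin, averaged 1313 ± 94 with Dox and 385 ± 41 in PS medium (SD, n = 3 each), 3.32-fold higher, and BCL6, a transcriptional repressor, rose 1.83-fold. In PS medium against untreated cells 3 rose and 4 fell (25% and 33.3%, against 14.2% and 15.7%; list medians 0.22 and -0.23). SESN3 fell 2.09-fold there (limma adjusted p = 6.15e-05) and BCL6 1.83-fold (0.00303), while CCNG2, a cyclin of arrested cells, rose 2.90-fold and PDK4, a kinase of pyruvate dehydrogenase, 2.85-fold.

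Of 6 measured genes for IGF2 mRNA-binding, LIN28 and HMGA proteins, 0 were called by limma with Dox over PS medium, where 2 higher and 1 lower had an unadjusted p under 0.05. In PS medium against untreated cells 0 rose and 2 fell (33.3% lower, against 15.7% of all genes), also at an unadjusted p under 0.05, and the medians were -0.01 and -0.09. Those were IGF2BP3, which binds IGF2 mRNA (1.59-fold lower), and LIN28A, an RNA-binding protein of pluripotent cells (1.22-fold). Of 14 measured imprinted genes, 4 rose and 1 fell with Dox over PS medium, and 4 rose and 2 fell in PS medium over untreated cells (medians -0.02 and 0.10). The shares were 28.6% higher and 7.14% lower with Dox, against 8.91% and 8.44% of all genes, and 28.6% and 14.3% in PS medium, against 14.2% and 15.7%. PLAGL1, a zinc finger factor, rose 1.58-fold with Dox (limma adjusted p = 0.0207), a call lost without replicate 1 (adjusted p = 0.0641) or 2 (0.0504) with Dox or replicate 2 of PS medium (0.0565). PEG10, a retrotransposon-derived gene, rose 1.58-fold in PS medium over untreated cells. DLK1, a Notch ligand relative, was 2.03-fold higher there (limma adjusted p = 0.0242), a call lost without untreated replicate 1 (adjusted p = 0.0902) or 2 (0.0616). RTL1, a retrotransposon-derived gene beside it, averaged 40 ± 3.44 with Dox, 76.2 ± 28.7 in PS medium and 42.3 ± 7.55 in untreated cells (SD, n = 3 each). The means with Dox and in untreated cells lay below the 25% quantile of every array (55.6 to 62.5), so no fold is given. RTL1 was called lower with Dox than in PS medium (limma adjusted p = 0.0326) and higher in PS medium than in untreated cells (0.0244). The first RTL1 call was lost without any 1 array with Dox (adjusted p = 0.0658 to 0.0849) or PS replicate 3 (0.0512), with all probe sets (0.0675) or with the groups compared alone (0.0592), and the second without untreated replicate 1 (0.103) or 3 (0.0543).

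**Figure D4:**
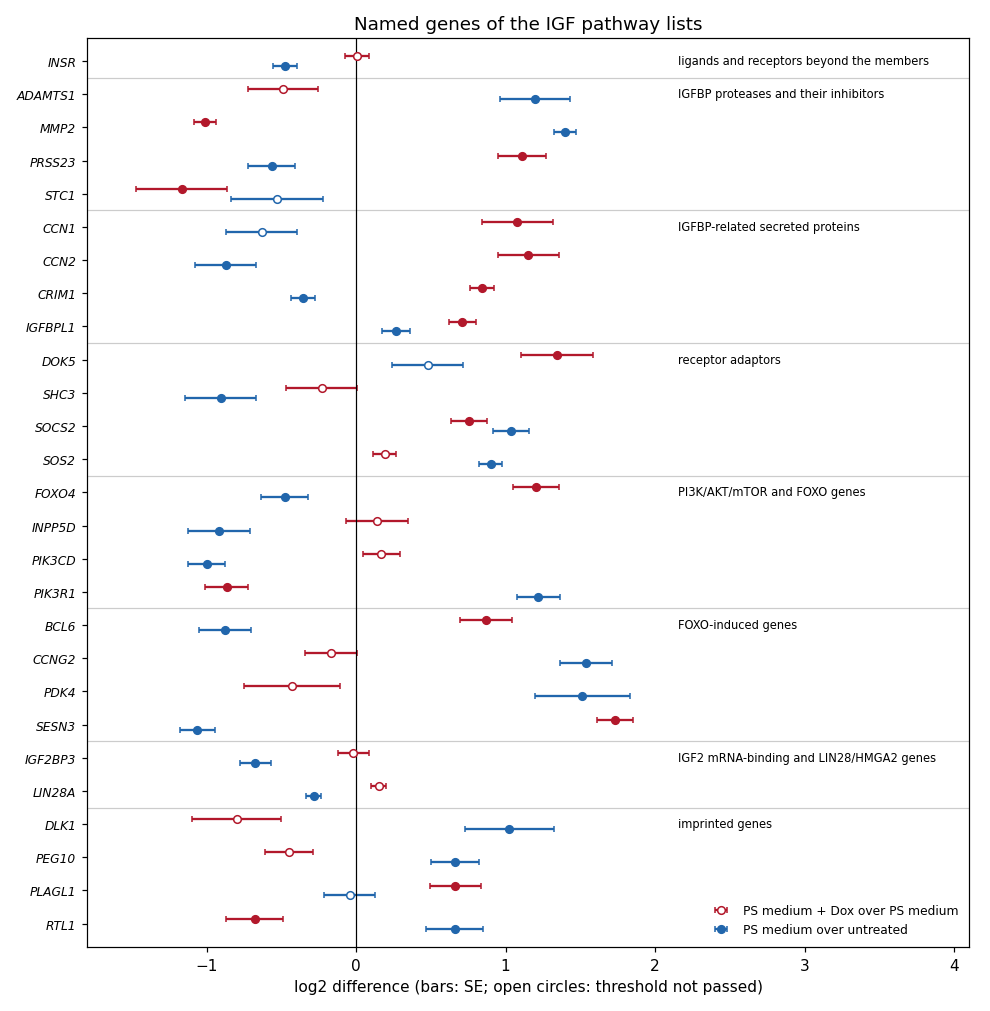
Log2 difference (horizontal axis) with its SE for the named genes of 8 lists around the IGF axis; red compares PS medium with Dox with PS medium, blue compares PS medium with untreated cells, and filled points passed an adjusted p of 0.05. SESN3 (1.73), DOK5 (1.34) and FOXO4 (1.20) have the largest positive values with Dox, and STC1 (-1.17) and MMP2 (-1.01) the most negative.

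Markers of cell types moved with these groups. Pluripotency markers fell in all 5 measured cases in PS medium against untreated cells, where 15.7% of all genes were called lower. With Dox over PS medium 3 of the 5 rose (60%, against 8.91% of all genes). Their summed intensities were 23749 to 24377 with Dox, 16467 to 18988 in PS medium and 26653 to 27793 in untreated cells, with PS medium lowest. PS arrays were also lowest for IGFBP2, IGFBP3 and IGFBP5, but the order of the other groups differed. Untreated cells were highest for IGFBP2 and PS medium with Dox for IGFBP5, while these groups overlapped for IGFBP3. The difference of IGFBP2 between Dox and PS medium was not called. SOX2, one of the 5, had 3499 to 3711 with Dox, 579 to 974 in PS medium and 3898 to 4561 in untreated cells.

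Streak markers rose in 7 of 7 in PS medium over untreated cells, where 14.2% of all genes did. They fell in 7 of 7 with Dox against PS medium, where 8.44% of all genes did. Their sums were 19987 to 29397 with Dox, 86415 to 96643 in PS medium and 1324 to 1439 in untreated cells. Most of the PS sum was EOMES, with 50981 to 57102, and 9529 to 15555 with Dox. With Dox over untreated cells 5 of 7 were called higher (71.4%, against 15.3% of all genes). GSC had 343 to 408 with Dox and 308 to 363 in untreated cells, and MESP1 had 406 to 453 and 446 to 463. Amnion and trophectoderm markers rose in 5 of 8 with Dox over PS medium (62.5%, against 8.91% of all genes). Their sums were 28318 to 31159 with Dox, 16373 to 17021 in PS medium and 2022 to 2307 in untreated cells. Most of the sum with Dox was the AP-2 gene TFAP2A, with 16479 to 18260. Members of that list differed in order: HAND1 had 2029 to 3014 with Dox, 2550 to 4912 in PS medium and 6.55 to 40.6 in untreated cells. KRT7 had 190 to 699 with Dox, 87.5 to 91.9 in PS medium and 301 to 414 in untreated cells, CDX2 was between 1098 and 1232 on all arrays, and CGA, a gonadotropin gene, was between 27.8 and 60.9.

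Fibroblast markers had sums of 3312 to 4127 with Dox, 3307 to 3566 in PS medium and 6182 to 6394 in untreated cells. With Dox over PS medium 1 of 8 rose and 1 fell, 12.5% each way, near the 8.91% higher and 8.44% lower of all genes. The one that rose, POSTN, had 178 to 785 with Dox, 34.5 to 73.5 in PS medium and 37 to 50.3 in untreated cells. The one that fell, THY1, made up most of the untreated sum and had 689 to 941 with Dox, 1111 to 1481 in PS medium and 4130 to 4358 in untreated cells. COL1A2 had 1083 to 1474 with Dox, 981 to 1065 in PS medium and 614 to 640 in untreated cells, while DCN and LUM were between 18.9 and 54.9 on all arrays. Definitive endoderm markers had sums of 5463 to 9113 with Dox, 19728 to 40631 in PS medium and 1249 to 1331 in untreated cells. Neuroectoderm markers had sums of 4539 to 4843 with Dox, 7842 to 9184 in PS medium and 4987 to 5667 in untreated cells. In PS medium over untreated cells 1 of 6 rose and 0 fell (16.7% higher, against 14.2% of all genes). With Dox over PS medium 0 rose and 2 fell (33.3% lower, against 8.44%). OTX2, of that list, had 1697 to 2057 with Dox, 5116 to 6478 in PS medium and 2328 to 2782 in untreated cells. Yolk sac endoderm markers had sums between 654 and 729 on all arrays. The smallest value of each array was above 0 (2.47e-05 to 3.06e-05), so a value above 0 does not show that a marker was expressed. The part of these cell types in the IGFBP changes was not tested.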

How the data were processed

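RNA of 9 samples of the H9-TCF7L1 line, 3 per group, was measured on Affymetrix whole-transcript arrays. The deposited values are intensities per probe set on a linear scale, made with Affymetrix Expression Console 1.1.1 and PLIER 2.0 per the submitters' processing notes. The sources used here give neither background correction nor normalization. Array medians ran from 200.4 to 216, and the number of arrays limits the precision.

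Of 33297 probe sets, 19460 had 1 gene symbol, 1754 several and 12083 none listed. Symbols were updated by gene number (19429 matched) to assembly GRCh38.p14. The brightest probe set stood for each of 18417 genes. Values were converted to log2(intensity + 16), quantile-normalized and fitted with limma 3.58.1 under R 4.3.3 (1 mean per group, eBayes with a trend, Benjamini-Hochberg adjustment), which was tested on simulated data. Scripts also used data.table (version 1.17.8), pandas 2.3.3 and matplotlib 3.10.9 under Python 3.11.15.

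Members and lists were chosen with earlier results of these data known. The text names all members, TCF7L1, up to 4 genes per list with the largest called changes and the 3 nearest patterns of each wide-ranging member. Cell type markers are named beside them. Same-numbered arrays deviated together between PS medium with Dox and PS medium (correlations over genes of 0.245, 0.428 and 0.246). They also did between PS medium with Dox and untreated cells (0.246, 0.309 and 0.297). Between PS medium and untreated cells the values were 0.086, 0.397 and 0.271. The labels state no pairing. The SEs and p-values printed here come from fits without pairing, except where the replicate block is named. There were 18 alternatives, named in the closing section.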

Additional observations from a re-analysis of the deposited data

How the results depend on the processing

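The 18 alternatives were log offsets of 1 and 64, values as deposited, median centring, the dimmest 25% of genes left out, all probe sets, a fit of the groups compared alone, no trend, the replicate number as a block and each array left out. Counts of called genes stayed within 1.5 times, at 3195 with Dox over PS medium (2404 to 3074 with 1 array left out, 4481 with the replicate block), 5495 in PS medium over untreated cells (4165 to 5632, and 6935) and 5572 with Dox over untreated cells (4167 to 6028, and 7055). Called members numbered 5, 4 and 5 (5, 4, and 4 to 5 with 1 array left out, and 6, 4 and 5 with the block). The block added the call of IGFBP2 with Dox over PS medium and changed no other call of a member. In PS medium over untreated cells the uncalled difference of IGF1R turned positive with median centring (0.0237), and ran from -0.0801 to 0.0220 with 1 array left out, positive without PS replicate 2 or untreated replicate 1. That of IGFBP1 ran from -0.0665 to 0.0238, positive without PS replicate 3. The cause was not tested. IGF1, PRSS23 and RTL1 have no value with the dimmest genes left out, because they were among them. Of called changes of the genes named from the pathway lists, 59 of 1021 comparisons with an alternative missed the threshold. The named genes had the largest called changes of their lists, and other called genes of the lists were not checked this way. Detection calls were not used here, so which dim values exceed background is unknown.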
